A study of Mus musculus with 342 samples.

Results

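CC001/Unc is one of the inbred mouse lines of the Collaborative Cross, a panel whose lines each carry a different mixture of the genomes of several founder strains. The values described here are the liver expression levels of its 8 male mice, out of 342 mice of 44 lines, chosen by the line name in the labels. Of these, 4 mice received a single oral dose of TAK-875 at 600 mg/kg and 4 received the vehicle, methylcellulose in water, and livers were taken 24 hours later. According to the labels, TAK-875 and vehicle mice of a line were dosed as pairs, which gives 4 pairs, numbered 1 to 4. The other 43 lines, with 167 pairs, had the same treatments, sex and age of about 8 to 10 weeks, and serve as the comparison. Each mouse is a separate animal, but the mice of a line share a genotype. Unless stated otherwise, the p-values and standard errors (SE) rest on 1 spread per gene, pooled over the mice or pairs within all 44 lines. They do not measure how far the 4 CC001/Unc pairs differed from each other.

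TAK-875, also known as fasiglifam, activates FFAR1, a receptor for free fatty acids, and was developed for diabetes until development stopped because of liver injury. The liver burns fatty acids in mitochondria and peroxisomes under control of the nuclear receptor PPARA, whose target genes include acyl-CoA thioesterases, peroxisomal oxidation enzymes and carnitine carriers. Many liver genes also follow the circadian clock, and others differ between male and female mice under the pattern of growth hormone release.

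Expression is given throughout as log2 array values per gene, and a response is the value of a TAK-875 mouse minus that of its vehicle partner, so that 1 unit is a doubling. Levels of different genes are not compared, because each probe set binds its target differently. Of 16397 probe sets, those naming a single gene gave 9093 genes. The array medians of the CC001/Unc mice lay between 5.82 and 6.04 with TAK-875 and between 5.96 and 6.08 with vehicle, within the range of 5.40 to 6.22 over all arrays. Hepatocyte markers had a median response of -0.01 over 13 measured genes, none of them called. Over the 500 genes that varied most between the other lines, each of the 8 arrays correlated best with the vehicle mean of its own line. These correlations with the line were 0.83, 0.63, 0.79 and 0.59 in TAK-875 mice 1 to 4, against 0.81, 0.82, 0.84 and 0.86 in the vehicle mice, each left out of the mean it was set against. The highest correlation with another line was 0.21.

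With the spread pooled over all lines, 18 genes were called for a response to TAK-875 in CC001/Unc livers. The largest rises were those of the acyl-CoA thioesterases Acot3 and Acot2, the mitochondrial carrier Slc25a34 and the clock output factor Tef. The largest falls were those of the matrix protein Ccn2 and the clock activator Npas2. These 18 genes are 0.198% of the 9093 tested, with 8 higher (0.0880%) and 10 lower (0.110%), at a limma adjusted p under 0.05. Without adjustment 839 genes, or 9.23%, had a p under 0.05. In 16 of the 18 genes all 4 pairs had the same sign, and in 16 the TAK-875 and vehicle mice did not overlap, as was so in 6.04% of all genes. The 18 were chosen by their mean difference in these same mice, which favours both counts, so they are no separate result. The changes of 12 of the 18 genes were at least 2-fold. The call count was 0 when pair 2 or pair 4 was left out, 41 without pair 1, and 2, Slc25a34 and Npas2, when the pairing of mice was ignored. It was also 0 with only the CC001/Unc arrays, where the spread came from the 4 pairs of this line alone. Without pair 3 the calls of Asap2, Ccn2, Ephx2, Mpeg1, Pkhd1 and Tef were lost, and without pair 1 those of Ephx2 and Glrx. The split between higher and lower calls depended on the scaling of arrays: 44.4% of the calls were higher with the deposited values, 78.6% of 28 with arrays centred on their medians and 66.7% of 36 after a further quantile normalization. Of the 18 genes, 13 were called with centred arrays, where 1700001C19Rik, Abca3, Cdh1, Cela1 and Smagp were lost, and 17 after quantile normalization, where 1700001C19Rik was lost. With the mean of all probe sets 16 were called, and Tef and Glrx were lost.

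**Figure D1:**
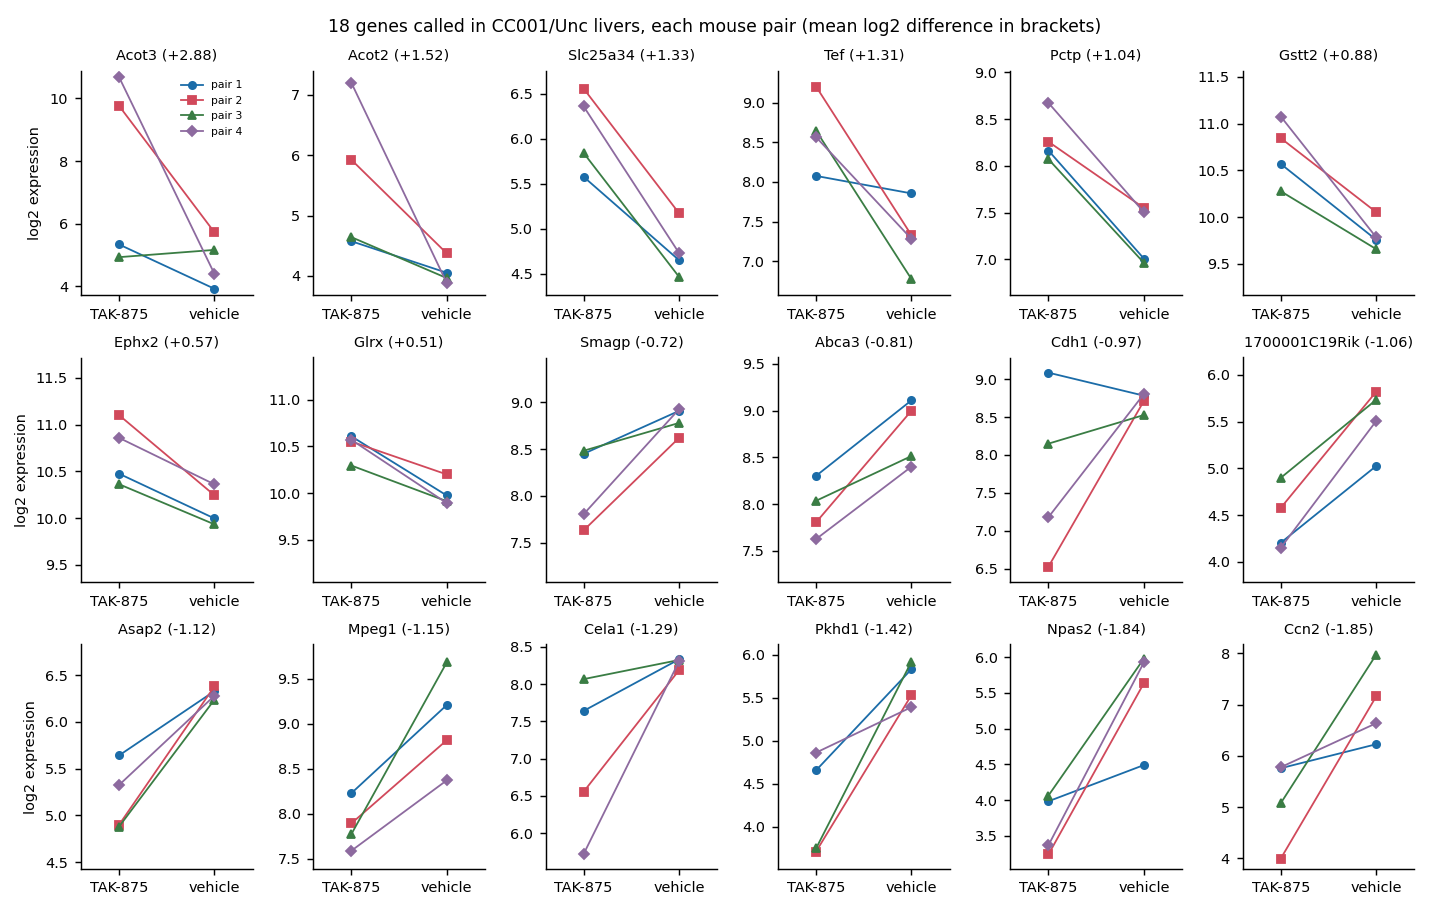
Log2 expression (vertical axis) of the 18 called genes in the 4 TAK-875 mice (left of each panel) and the 4 vehicle mice (right), with a line joining the mice of a pair. The number in brackets is the mean difference. Acot3, Acot2, Cdh1 and Cela1 differ most in pairs 2 and 4, while Slc25a34, Pctp, Gstt2 and Asap2 move in all 4 pairs.

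Acot3, a peroxisomal acyl-CoA thioesterase, had log2 levels of 5.34, 9.77, 4.93 and 10.69 in TAK-875 mice 1 to 4, against 3.92, 5.73, 5.16 and 4.40 in their vehicle partners. TAK-875 mice 2 and 4 stood far above all others, while mice 1 and 3 lay within the vehicle range, so the groups overlapped. The mean response was 2.88 ± 0.67 (SE), a 7.35-fold difference with an adjusted p of 0.0269. Acot2, the mitochondrial member of the same gene cluster, had 4.57, 5.92, 4.64 and 7.20 in TAK-875 mice, against 4.05, 4.37, 3.96 and 3.88 in vehicle mice. Here the groups did not overlap, and mice 2 and 4 were again the highest. The response of Acot2 was 1.52 ± 0.37 (adjusted p = 0.0414). The cytosolic Acot1 was also highest in mice 2 and 4, with 7.92, 8.84, 7.58 and 9.97 in TAK-875 mice, against 7.27, 8.07, 7.32 and 6.97 in vehicle mice, and did not pass the test (1.17, adjusted p = 0.548). These 3 thioesterases are closely similar in sequence, and probe sets of one may bind transcripts of another.

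Slc25a34, a mitochondrial carrier of uncertain substrate, had 5.58, 6.55, 5.84 and 6.36 in TAK-875 mice, against 4.65, 5.17, 4.47 and 4.73 in vehicle mice. All 4 treated mice lay above all vehicle mice, with pair differences from 0.92 to 1.63. The response was 1.33 ± 0.25 (adjusted p = 0.00504), against a mean of 0.16 in the other lines, whose line means ran from -0.60 to 0.63. CC001/Unc had the highest response of the 44 lines for this gene. Pctp, which carries phosphatidylcholine between membranes, had 8.16, 8.26, 8.07 and 8.67 in TAK-875 mice, against 7.01, 7.55, 6.96 and 7.50 in vehicle mice. Its groups did not overlap and its response of 1.04 (adjusted p = 0.012) was close to the 0.88 of the other lines, where Pctp rose in the mean of each of the 43.

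Of the other rises, Tef is described with the clock genes, and Gstt2, Ephx2 and Glrx stood clear of the vehicle mice. Gstt2, a glutathione transferase, had 10.57, 10.84, 10.28 and 11.08 in TAK-875 mice, against 9.76, 10.05, 9.66 and 9.78 in vehicle mice, with no overlap (0.88, adjusted p = 0.0112). Ephx2, the soluble epoxide hydrolase that clears lipid epoxides, had 10.47, 11.10, 10.36 and 10.86 in TAK-875 mice, against 10.00, 10.24, 9.93 and 10.36 in vehicle mice. For Ephx2 the lowest TAK-875 mouse was just above the highest vehicle mouse (0.57, adjusted p = 0.0319). Glrx, the thiol repair enzyme glutaredoxin, had 10.61, 10.55, 10.30 and 10.57 in TAK-875 mice, against 9.98, 10.20, 9.91 and 9.89 in vehicle mice, again without overlap (0.51, adjusted p = 0.0273). The mean response of Glrx in the other lines was 0.09, and CC001/Unc ranked highest of the 44 lines.

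Among the falls, Ccn2, a matrix-associated growth factor known as a target of YAP and of TGF-beta signalling, had 5.76, 4.00, 5.08 and 5.78 in TAK-875 mice, against 6.23, 7.16, 7.97 and 6.64 in vehicle mice. Every treated mouse was below every vehicle mouse, most in pairs 2 and 3. The response was -1.85 ± 0.42 (adjusted p = 0.0252), the lowest of the 44 lines, against 0.06 in the mean of the other lines. Pkhd1, the fibrocystin of cilia in bile duct cells, had 4.65, 3.71, 3.75 and 4.86 in TAK-875 mice, against 5.83, 5.53, 5.92 and 5.39 in vehicle mice. Its groups were apart, with a response of -1.42 (adjusted p = 0.0252). The 4 measured cholangiocyte markers had a median response of -0.13 with no member called, and their summed linear level was 44.5 to 50.5 in TAK-875 mice and 52.2 to 60.6 in vehicle mice. The part of cholangiocyte content in the Pkhd1 result was not tested. In whole liver RNA, fewer cells of a type and less RNA per cell cannot be told apart.

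Cdh1, the adhesion protein E-cadherin, which is richest in periportal hepatocytes, had 9.09, 6.53, 8.15 and 7.18 in TAK-875 mice, against 8.78, 8.71, 8.53 and 8.80 in vehicle mice. TAK-875 mice 2 and 4 were low, mouse 1 was above all vehicle mice, and the vehicle mice were close together. The response was -0.97 ± 0.23 (adjusted p = 0.0319), against 0.01 in the other lines. Cela1, an elastase best known from the pancreas, had 7.64, 6.56, 8.07 and 5.72 in TAK-875 mice, against 8.33, 8.19, 8.32 and 8.31 in vehicle mice. The treated mice were all lower and spread widely, with mouse 4 the lowest (-1.29, adjusted p = 0.0414). The other-lines mean for Cela1 was -0.54. The 5 measured pancreas markers, Cela1 among them, had a median response of 0.12.

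Mpeg1, the macrophage perforin-2, had 8.23, 7.89, 7.77 and 7.59 in TAK-875 mice, against 9.21, 8.82, 9.68 and 8.37 in vehicle mice. All treated mice were lower than all vehicle mice (-1.15, adjusted p = 0.0298), and the fall was the largest of the 44 lines. Over the 16 measured Kupffer cell and macrophage markers the median response was -0.15, and 13 were below 0, as were 57.4% of all genes. Mpeg1 alone was called lower, against 0.110% of all genes. The median was -0.0791 without pair 3 and -0.0568 with centred arrays, where 10 of the 16 were below 0. The summed linear level of these markers was 3880 to 4189 in TAK-875 mice and 3870 to 5525 in vehicle mice. Clec4f, the lectin that defines Kupffer cells, had 8.68, 8.51, 8.80 and 8.69 in TAK-875 mice, against 8.75, 8.62, 8.70 and 8.55 in vehicle mice, a mean response of 0.02. The Clec4f groups overlapped, whereas those of Mpeg1 did not.

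The 4 other falls were each without overlap of the groups. Asap2, a regulator of ARF GTPases, had 5.64, 4.90, 4.88 and 5.32 in TAK-875 mice, against 6.33, 6.38, 6.24 and 6.28 in vehicle mice (-1.12, adjusted p = 0.0252). The lipid transporter Abca3 (-0.81), the small membrane protein Smagp (-0.72) and the uncharacterised 1700001C19Rik (-1.06) had adjusted p-values of 0.0252, 0.0273 and 0.0269 and were lower in all 4 pairs. The second probe set of 1700001C19Rik gave -0.57 and that of Abca3 gave -0.80.

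Clock genes went in both directions. Of 19 measured, Tef was called higher and Npas2 lower, against 0.0880% and 0.110% of all genes. The median response was 0.32 against 0.10 in the other lines. It was 0.49 without pair 1, 0.25 without pair 2, 0.24 without pair 3 and 0.23 without pair 4. Npas2, which pairs with BMAL1 to activate clock genes, had 3.98, 3.24, 4.06 and 3.37 in TAK-875 mice, against 4.49, 5.63, 5.98 and 5.92 in vehicle mice. The groups did not overlap, and vehicle mouse 1 was well below the other vehicle mice. The response of -1.84 ± 0.36 (adjusted p = 0.00504) was the lowest of all lines, whose other means ran from -1.64 to 1.02. Tef, an output factor of the clock that binds D-boxes, had 8.08, 9.20, 8.65 and 8.56 in TAK-875 mice, against 7.86, 7.33, 6.77 and 7.28 in vehicle mice. All treated mice were higher, with pair 1 the least apart (1.31, adjusted p = 0.0252), and the other probe set of Tef gave 0.56. The Tef call was lost without pair 2, 3 or 4, and the Npas2 call without pair 2 or 4.

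Other clock genes did not pass the test. Dbp, the sister factor of Tef, had 5.83, 8.53, 7.60 and 5.20 in TAK-875 mice, against 5.91, 3.94, 3.34 and 4.08 in vehicle mice (2.47, adjusted p = 0.149). Arntl, which encodes BMAL1, had 6.23, 5.15, 5.05 and 5.41 in TAK-875 mice, against 6.45, 6.83, 6.81 and 6.68 in vehicle mice (-1.23, adjusted p = 0.144). For Arntl the groups did not overlap, whereas for Dbp the pair 1 mice were alike and the other 3 pairs were apart. Per2, a clock repressor, had 5.37, 4.71, 5.82 and 5.37 in TAK-875 mice and 3.75, 4.16, 4.59 and 4.40 in vehicle mice, a response of 1.10 (adjusted p = 0.26). The hour at which each mouse was dosed and killed is not given in the labels, and whether it differed within pairs was not tested.

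The 250 bases before the start of Slc25a34, Tef and Npas2, from RefSeq on GRCm38.p6, are shown because Slc25a34 is one of the 2 genes with the smallest adjusted p against the other lines, and Tef and Npas2 are the clock genes that moved in opposite directions. Capitals mark CACGTG, the E-box that clock activators bind, and AGGTCA, the hexamer that nuclear receptors such as PPARA bind in pairs, on either strand. Slc25a34 lies at chr4:141623835-141624084 on the minus strand, Tef at chr15:81802423-81802672 on the plus strand and Npas2 at chr1:39194022-39194271 on the plus strand.
Slc25a34: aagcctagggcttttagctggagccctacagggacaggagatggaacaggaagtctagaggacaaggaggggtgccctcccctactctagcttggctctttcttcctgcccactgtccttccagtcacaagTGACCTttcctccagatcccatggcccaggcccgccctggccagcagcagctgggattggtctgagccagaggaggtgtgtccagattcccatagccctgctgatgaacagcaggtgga
Tef: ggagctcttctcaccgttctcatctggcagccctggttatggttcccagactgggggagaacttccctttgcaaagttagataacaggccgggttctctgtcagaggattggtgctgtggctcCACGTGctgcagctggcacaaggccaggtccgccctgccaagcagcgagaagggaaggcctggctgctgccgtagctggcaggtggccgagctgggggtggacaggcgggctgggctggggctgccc
Npas2: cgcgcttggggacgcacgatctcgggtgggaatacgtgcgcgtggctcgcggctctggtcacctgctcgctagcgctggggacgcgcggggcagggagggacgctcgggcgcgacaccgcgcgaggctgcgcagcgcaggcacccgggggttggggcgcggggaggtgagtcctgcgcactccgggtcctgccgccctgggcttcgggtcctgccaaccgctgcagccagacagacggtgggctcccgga
A RefSeq window was at hand for 13 of the 18 called genes. The E-box was found in 1 of the 13, Tef, against 6.05% of 27025 promoter windows, and AGGTCA in 2, Slc25a34 and Cela1, against 13.84%. The D-box TTATGNAA, searched on both strands, was in 0 of the 13 and in 3.23% of all windows. These matches are descriptions of letters and do not show binding.

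PPARA targets were mostly higher with TAK-875. Of 36 measured, 3 were called higher (Acot3, Acot2 and Pctp) and none lower, against 0.0880% and 0.110% of all genes. Of the 36, 34 were above 0, while 42.6% of all genes were. The median response was 0.46, against -0.04 over all genes and 0.28 for the same list in the other lines. By pair the list medians were 0.29, 0.65, 0.19 and 0.68 for pairs 1 to 4, with 30, 33, 22 and 34 of the 36 members higher. Without pair 2 or without pair 4 no member was called, and the median was 0.36 and 0.39. Ehhadh, the bifunctional peroxisomal enzyme, had 11.38, 11.13, 11.09 and 11.66 in TAK-875 mice, against 10.52, 10.44, 10.44 and 10.78 in vehicle mice. Its groups did not overlap, and its response was 0.77 in CC001/Unc (adjusted p = 0.11) and 0.81 in the mean of the other lines. Vnn1, a pantetheinase, had 9.28, 10.34, 9.73 and 10.18 in TAK-875 mice, against 8.36, 8.16, 9.02 and 8.72 in vehicle mice (1.32, adjusted p = 0.0852). These groups were also apart. Cpt1a, the gatekeeper of mitochondrial fatty acid entry, was 9.54, 11.61, 9.89 and 10.53 in TAK-875 mice, against 9.56, 9.59, 9.57 and 9.85 in vehicle mice, so that mouse 2 was high (0.75, adjusted p = 0.179).

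**Figure D2:**
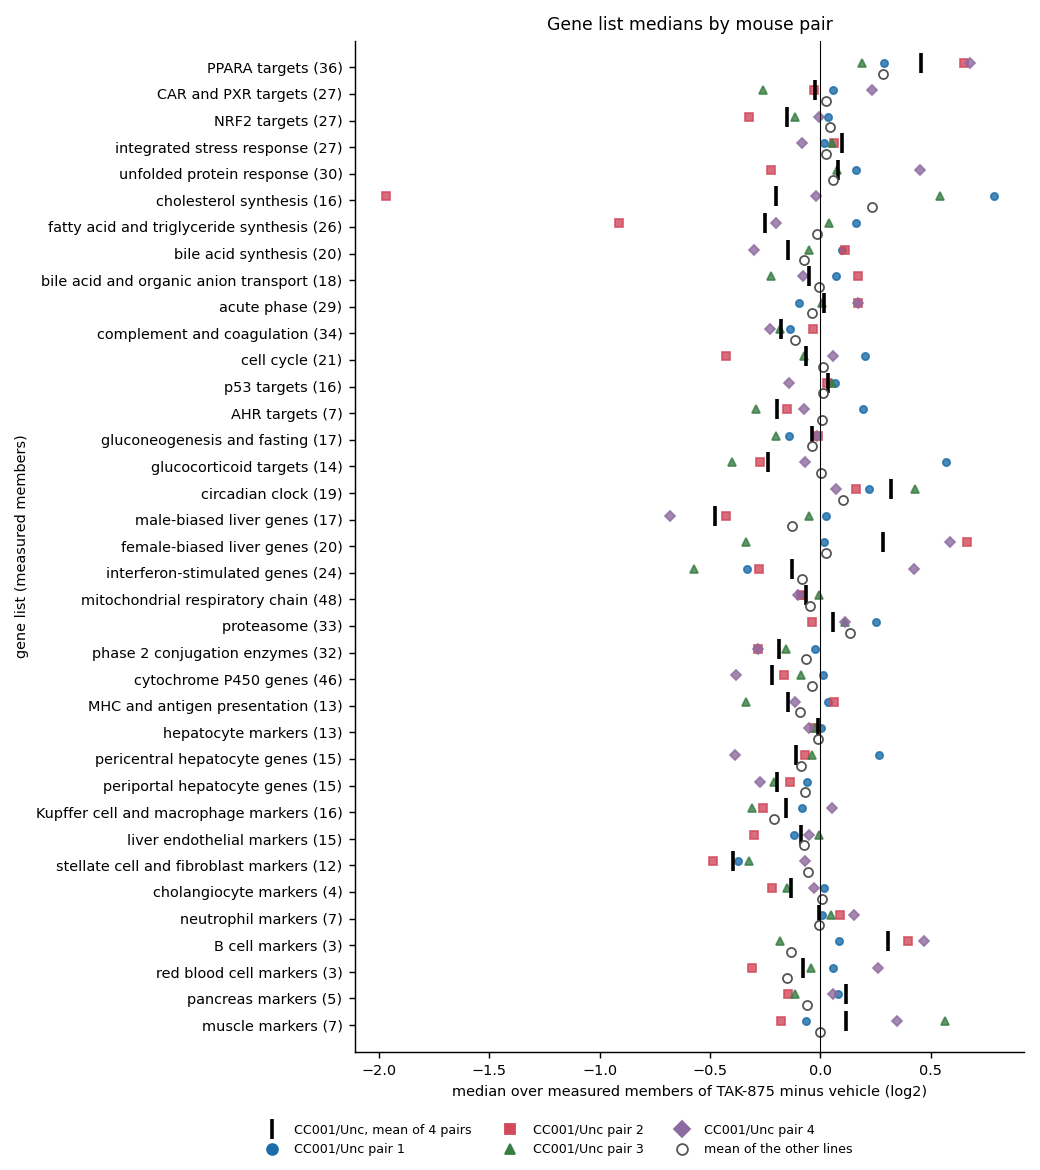
Median response over the measured members (horizontal axis, log2) of each gene list (vertical axis, measured members in brackets) for the 4 CC001/Unc pairs (coloured symbols), their mean (black bar) and the mean of the other lines (open circle). PPARA targets lie to the right of 0 in all 4 pairs, while cholesterol synthesis runs from -1.97 in pair 2 to 0.79 in pair 1.

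Some lists differed widely between the pairs. All 16 measured cholesterol synthesis genes were lower in pair 2, while 14, 13 and 8 of them were higher in pairs 1, 3 and 4. The pair medians were 0.79, -1.97, 0.54 and -0.02, and no member was called. The list median was -0.20 with all pairs, -0.44 without pair 1, 0.38 without pair 2 and -0.38 without pair 3. Mvd, which makes isopentenyl diphosphate, had 7.15, 3.67, 7.56 and 7.78 in TAK-875 mice, against 5.80, 7.40, 6.44 and 6.44 in vehicle mice. TAK-875 mouse 2 was the lowest of the 8 and the other treated mice were above their partners, and the mean response was 0.02. The same mouse held the highest Fgf21, a fasting and stress hormone, with 3.41, 10.00, 2.98 and 4.53 in TAK-875 mice, against 3.34, 3.44, 3.94 and 3.37 in vehicle mice (1.71, adjusted p = 0.153).

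In the sex-biased lists pairs 2 and 4 were further from 0 than pair 1. All 17 measured male-biased genes had a mean response below 0, as did 57.4% of all genes, with a median of -0.48 against -0.13 in the other lines, and none was called. With centred arrays 14 of the 17 were below 0, and without pair 4 also 14, with a median of -0.29. The pair medians were 0.02, -0.43, -0.05 and -0.68. Elovl3, a fatty acid elongase, had 9.84, 6.81, 9.86 and 5.51 in TAK-875 mice, against 10.56, 10.37, 9.94 and 10.82 in vehicle mice. The groups did not overlap, yet mice 1 and 3 were close to the vehicle range (-2.42, adjusted p = 0.0788), and no line had a lower response. Hsd3b5, a male-specific steroid dehydrogenase, had 9.16, 4.03, 9.78 and 5.20 in TAK-875 mice, against 9.06, 9.10, 9.27 and 9.51 in vehicle mice (-2.19, adjusted p = 0.261). Here only TAK-875 mice 2 and 4 lay below the vehicle range.

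Of 20 measured female-biased genes, 1 was called higher (Acot3, also a PPARA target), against 0.0880% of all genes. The list had a median of 0.28 and pair medians of 0.01, 0.66, -0.34 and 0.59. The median was 0.0766 without pair 2, 0.48 without pair 3 and -0.02 without pair 4, and Acot3 was not called without pair 2 or pair 4. Cyp2b13, a female-specific cytochrome P450, had 2.88, 2.90, 2.93 and 8.33 in TAK-875 mice, against 2.76, 3.21, 3.02 and 3.11 in vehicle mice. Cyp2b9, its close relative, had 3.70, 5.24, 4.02 and 9.62 in TAK-875 mice, against 4.14, 4.64, 5.31 and 4.55 in vehicle mice. TAK-875 mouse 4 stood alone in both, and the sequences are similar enough that the probe sets may share transcripts. Neither gene passed the test (adjusted p = 0.189 and 0.724), and Cyp2b13, Cyp2b9, Hsd3b5, Cpt1a, Arntl, Per2 and Clec4f were chosen for naming after their values were seen.

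The acute-phase list had a median response of 0.02 over 29 genes, none called. Within it Saa2, a serum amyloid, had 10.66, 10.78, 10.76 and 11.26 in TAK-875 mice, against 7.61, 9.66, 7.48 and 8.00 in vehicle mice. All treated mice were above all vehicle mice, but the response of 2.68 ± 1.17 did not pass (adjusted p = 0.427). The mean of the other lines was -0.51, with line means from -4.50 to 2.82. Lcn2, an iron-binding protein induced in inflamed hepatocytes and present in neutrophils, had 10.49, 10.48, 10.94 and 11.33 in TAK-875 mice, against 9.61, 9.58, 9.37 and 9.46 in vehicle mice, also without overlap (1.31, adjusted p = 0.694). The neutrophil list had a median response of -0.01 over 7 genes, and its summed linear level, which holds Lcn2, was 1541 to 2709 in TAK-875 mice and 764 to 923 in vehicle mice. S100a9, a defining neutrophil gene, was 5.12, 4.84, 4.63 and 5.60 in TAK-875 mice and 5.81, 4.66, 5.02 and 4.72 in vehicle mice, a difference of -0.01.

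Of 12 measured stellate cell and fibroblast markers 11 were below 0, as were 57.4% of all genes, with a median of -0.40 against -0.06 in the other lines, and none was called. The pair medians were -0.37, -0.49, -0.32 and -0.07. With centred arrays 10 were below 0, with a median of -0.30. Against the other lines, these markers had a median difference of 0.40 in the vehicle mice, which the response subtracts, with 3 called higher against 8.60% of all genes. In the TAK-875 mice the median difference was 0.06. The remaining lists had medians between -0.25 and 0.30. One gene was called in each of the phase 2 conjugation (Gstt2), periportal (Cdh1), macrophage (Mpeg1) and pancreas (Cela1) lists. In all, 7 of the 39 lists held a called gene, with Acot3 counted in both the PPARA target and the female-biased list. A list holds many genes, so this count cannot be set against the 0.198% of all genes called. Of 978 list entries, 735 were measured.

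Bile acid handling is of interest because TAK-875 is known to inhibit bile salt transport. No gene was called among 20 synthesis and 18 transport genes, against 0.198% of all genes. With so low a share, the lack of a call in lists of this size says little. Abcb11, the bile salt export pump, had 8.98, 8.83, 8.40 and 8.66 in TAK-875 mice, against 9.40, 8.72, 9.12 and 8.97 in vehicle mice. The groups overlapped (-0.34, adjusted p = 0.804). Abcc3, which exports conjugates to blood, had 9.82, 10.76, 9.86 and 10.17 in TAK-875 mice, against 9.78, 9.63, 9.25 and 9.44 in vehicle mice, with the lowest treated mouse just above the highest vehicle mouse (0.63, adjusted p = 0.267). Cyp7a1, which limits the rate of bile acid synthesis, had 6.56, 7.62, 3.80 and 3.86 in TAK-875 mice, against 6.30, 8.57, 6.08 and 4.36 in vehicle mice, with wide spread in both groups (-0.87, adjusted p = 0.784).

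Set against the other 43 lines, the response of CC001/Unc went the same way for the genes that moved at least 1.5-fold in their mean. The mean response of the other lines had 35.4% of genes called, from many more pairs. Among the 24 genes that differed by at least 1.5-fold in that mean, all 24 had the same sign in CC001/Unc, against 61.6% of all genes. In CC001/Unc 18 of them had an unadjusted p under 0.05 and 5 were called, against 9.23% and 0.198% of all genes. The size was larger in CC001/Unc for 17 of the 24, with a median of 0.95 against 0.67. Of the 18 genes called in CC001/Unc, 16 had the sign of the other lines and were called there too, as against 61.6% of all genes with the same sign. The exceptions were Ccn2 and Cdh1, whose means in the other lines were close to 0. The tests of the difference are separate and follow.

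**Figure D3:**
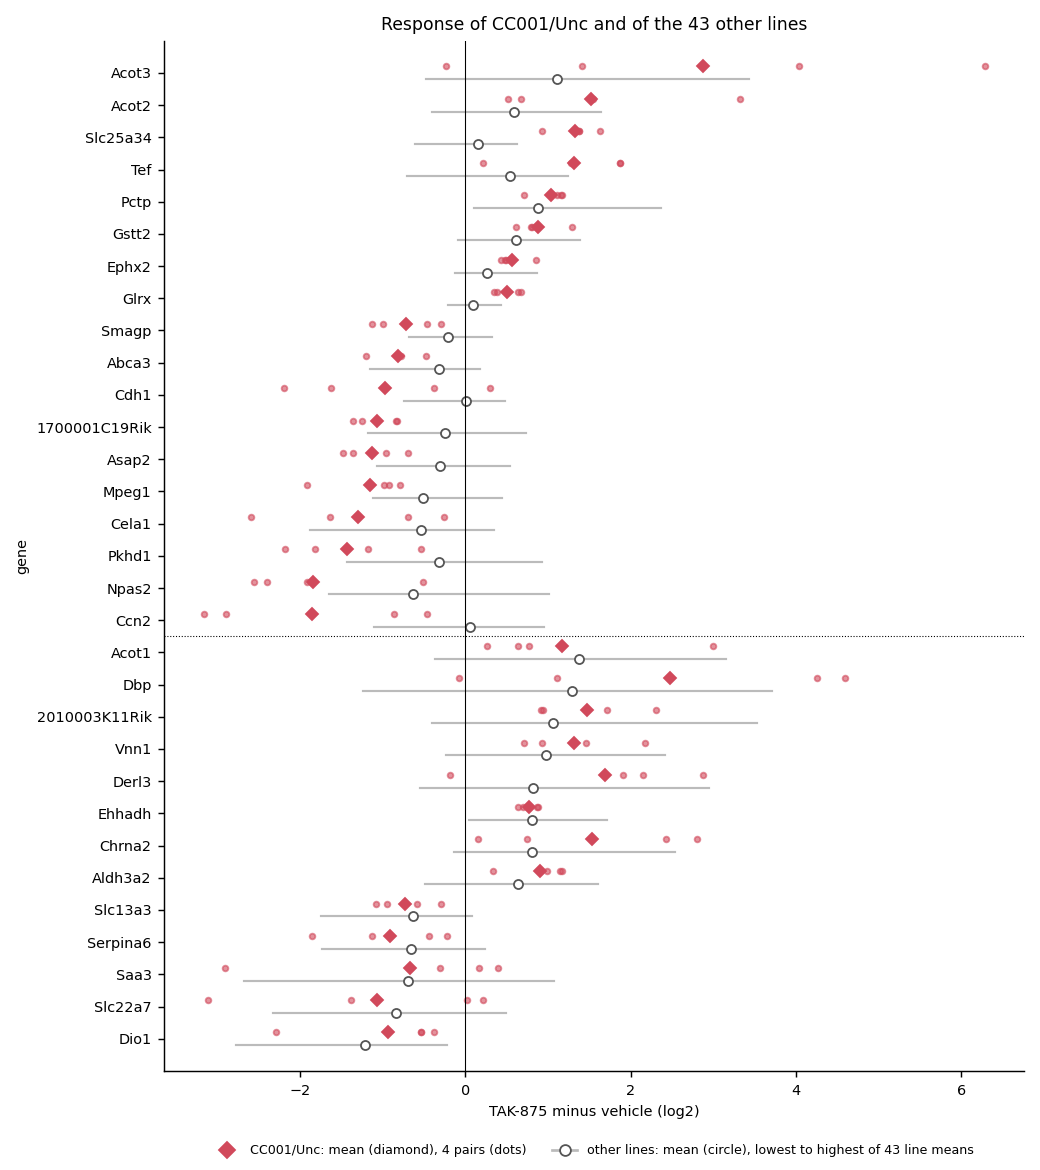
Response (horizontal axis, TAK-875 minus vehicle, log2) of the 18 genes called in CC001/Unc (above the dotted line) and of the genes leading the mean of the other lines (below it). Red diamonds and dots are the CC001/Unc mean and its 4 pairs, open circles the mean of the 43 other lines and grey lines the range of their line means. Slc25a34, Cdh1 and Ccn2 are among the 9 called genes that lie outside the range of the other lines.

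Tested directly, the response of CC001/Unc minus the mean of the other lines was called for 0 of 9093 genes (0%) by limma, while 521 genes (5.73%) had an unadjusted p under 0.05. The smallest adjusted p was 0.0797, shared by Slc25a34, with a difference of 1.17 ± 0.26, and Ccn2, with -1.91 ± 0.43. Both were in the same direction in 4 of 4 pairs. Slc25a34 passed this test when arrays were centred on their medians or quantile normalized again, and Ccn2 and Cdh1 (-0.98) passed it when pair 1 was left out. For Acot3 the difference from the other lines was 1.77 (adjusted p = 0.697), and for Npas2 it was -1.21 (adjusted p = 0.502). Among the 18 called genes, 9 placed CC001/Unc first or last of the 44 lines, which their choice by size of response favours.

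By the number of genes called for the response within a line, CC001/Unc ranked 28 of 44. Its median size of response over all genes was 0.16, rank 24 of 44, and 80 genes had a mean response of at least 1 in either direction. The pairs of CC001/Unc differed in this too, with 275, 591, 639 and 343 genes at a difference of at least 1 in pairs 1 to 4. The correlation of each pair's differences with the other-lines mean over genes was 0.31, 0.24, 0.17 and 0.43.

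**Figure D4:**
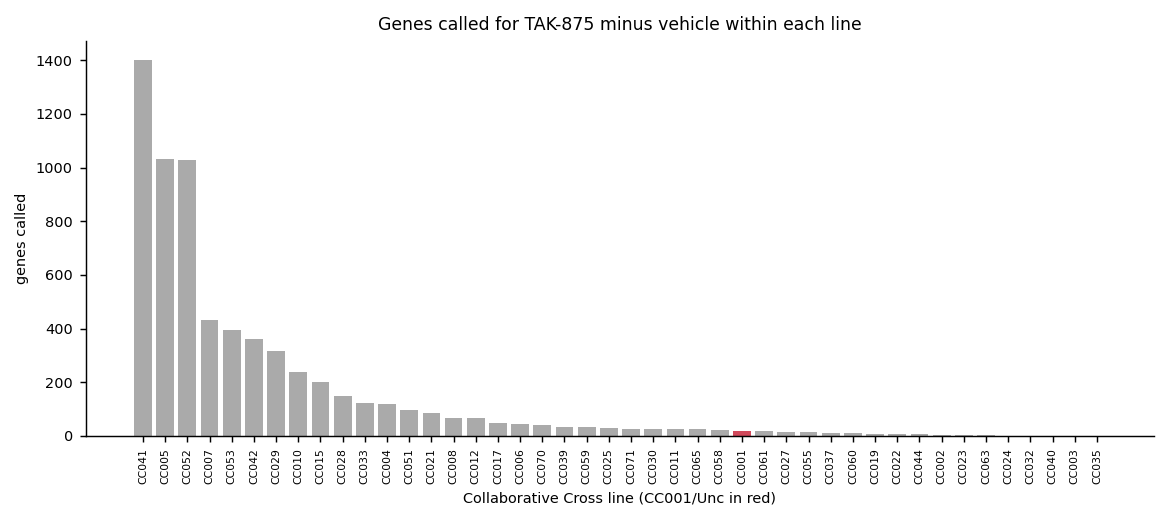
Number of genes called for TAK-875 minus vehicle (vertical axis) within each of the 44 lines (horizontal axis), from 1 fit over all lines. CC001/Unc, in red, has 18 calls and ranks 28.

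Vehicle-treated CC001/Unc livers differed from the other lines in 1368 genes, or 15.0% of those tested, with 782 higher (8.60%) and 586 lower (6.44%). At least 2-fold differences were found in 104 higher and 67 lower genes. The share of higher calls was 57.2% with the deposited values and 42.0% with centred arrays. The limma error here is the spread between mice within lines. When the spread between lines was used as the error, 0 genes were called by limma and 231 had an unadjusted p under 0.05, so the calls say that this line is away from the average, and not that it is unusual among lines. Without vehicle mouse 1 or mouse 3 the calls numbered 782 and 783. In the TAK-875 mice, which are other animals, 876 genes (9.63%) were called for the same contrast. Of these, 559 were called in both with the same sign, which is 40.9% of the vehicle calls and 63.8% of the TAK-875 calls.

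Cav1, the coat protein of caveolae, was the highest relative to the other lines, with 10.02, 9.66, 9.41 and 9.07 in CC001/Unc vehicle mice, against line means from 3.56 to 9.51 with a median of 4.28 in the others. The difference was 4.76 ± 0.32 (adjusted p = 1.23e-26), with 2 other lines within 1 unit of CC001/Unc. In the TAK-875 mice Cav1 was 9.85, 8.67, 9.38 and 4.89, so that mouse 4 alone was at the level of most other lines, while in that mouse B4galnt1 was 2.47, Bace2 7.18 and Mx2 8.29, near the other CC001/Unc mice. Cyp39a1, an oxysterol hydroxylase of bile acid synthesis, had 7.23, 6.84, 7.76 and 7.29 in CC001/Unc vehicle mice, against 2.54 to 6.55 in the other lines. All 4 mice were above every other line mean (3.08, adjusted p = 1.87e-11). Adamdec1, a secreted metalloprotease of macrophages and dendritic cells, had 6.30, 6.18, 7.01 and 6.22 in CC001/Unc vehicle mice, against 2.85 to 5.77 in the other lines, also above all of them (2.71, adjusted p = 1.15e-29).

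B4galnt1, the enzyme that makes complex gangliosides, was the lowest relative to the other lines, with 2.77, 3.19, 2.63 and 2.28 in CC001/Unc vehicle mice, against line means from 2.59 to 8.71 with a median of 8.18. Only 6 other lines were within 1 unit of CC001/Unc, and the rest were far above (-4.72, adjusted p = 7.42e-39). Ugt3a2, a glycosyltransferase, had 4.91, 4.77, 4.63 and 4.16 in CC001/Unc vehicle mice, against 3.64 to 11.64 in the other lines, of which 19 lay within 1 unit of CC001/Unc (-3.43). The low Ugt3a2 level was thus shared with many lines. Abhd1, a hydrolase, had 5.19, 4.99, 5.11 and 5.23 in CC001/Unc vehicle mice, with 14 other lines within 1 unit and a median of 9.15 (-2.82). Cyp17a1, which makes androgen precursors, had 3.68, 3.73, 3.72 and 3.64 in CC001/Unc vehicle mice, against 3.52 to 9.65 in the other lines (-2.29). Its low level was shared with other lines, such as CC002/Unc at 3.79, CC025/GeniUnc at 3.71 and CC051/TauUnc at 3.72.

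**Figure D5:**
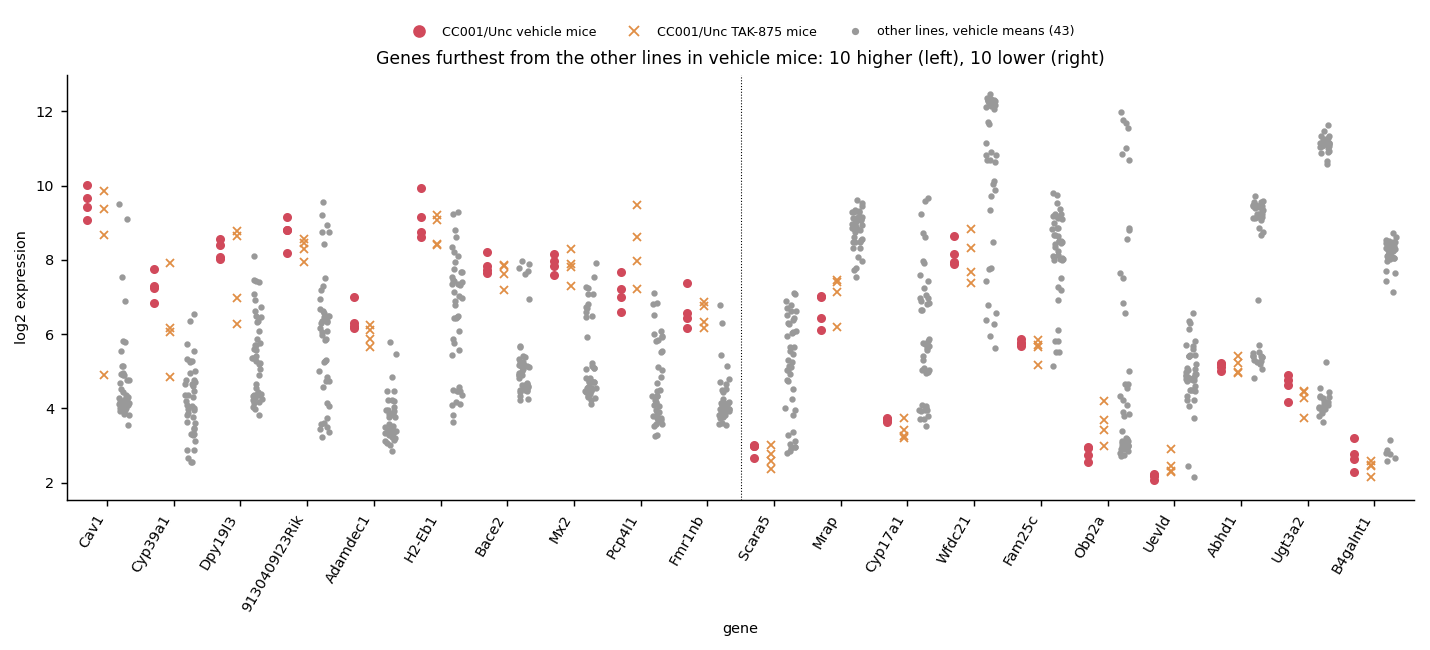
Log2 expression (vertical axis) of the 10 genes furthest above (left) and 10 furthest below (right) the other lines in vehicle mice. For each gene red dots are the 4 CC001/Unc vehicle mice, orange crosses the 4 CC001/Unc TAK-875 mice and grey dots the vehicle means of the 43 other lines. Cav1 of 1 TAK-875 mouse, at 4.89, lies apart from the other 7 CC001/Unc mice.

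The other genes furthest above were Dpy19l3, 9130409I23Rik, H2-Eb1, Bace2, Mx2, Pcp4l1 and Fmr1nb, with differences from 2.42 to 2.83. Those furthest below were Uevld, Obp2a, Fam25c, Wfdc21, Mrap and Scara5, from -2.74 to -2.19. The probe sets of 2 of these genes disagreed: the 3 of Dpy19l3 gave 0.33 to 2.83, and the 2 of Mrap, the accessory protein of the ACTH receptor, gave -2.20 and 0.20. Whether sequence variants of the line under the probes alter binding was not tested, and it touches every difference between lines.

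Interferon-stimulated genes were mostly higher in CC001/Unc vehicle livers than in the mean of the other lines. Of 24 measured, 15 were called higher and 1 (Stat2) lower, against 8.60% and 6.44% of all genes, and the median difference was 0.59. Vehicle mouse 3 bore on this count: without it 7 were called higher, with a median of 0.45, and without mouse 4 it was 15 and 0.83. In the TAK-875 mice, which are other animals, the median was 0.50 and 11 were called higher. Mx2, an antiviral GTPase, had 7.85, 8.15, 7.96 and 7.60 in CC001/Unc vehicle mice, against 4.11 to 7.91 in the other lines with a median of 4.73 (2.57, adjusted p = 7.27e-23). A single other line had a higher mean. Usp18, the brake on interferon signalling, had 7.31, 7.17, 7.12 and 6.46 in CC001/Unc vehicle mice, and a mean of 5.98 in the other lines (1.04, adjusted p = 0.000742). Irf7, which amplifies the interferon response, differed by 0.83, with line means from 4.35 to 7.30 in the others and CC001/Unc at rank 6. With the spread between lines as the error, 0 of the 24 genes were called, so high levels were not particular to this line.

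Genes of antigen presentation and macrophages were mostly above the mean of the other lines in the same mice. Of 13 measured antigen presentation genes, 6 were called higher and 2 lower, against 8.60% and 6.44% of all genes. The higher ones included the class II genes H2-Eb1 (2.62), H2-Ab1 (1.94) and H2-Aa (1.63). The lower ones were H2-T23 (-0.56) and H2-Ea (-0.77), which is also a class II gene, so class II genes went in both directions. H2-Eb1 had 8.75, 9.17, 9.94 and 8.62 in CC001/Unc vehicle mice, against 3.62 to 9.30 in the other lines, with 2 of the 43 above its mean. Of 16 Kupffer cell and macrophage markers 9 were called higher and 1, Marco, lower, against 8.60% and 6.44% of all genes, with a median of 0.47. The Marco call was lost when any 1 of the 4 vehicle mice was left out. The 9 calls became 5 with centred arrays, and 5 to 7 when a mouse was left out. Vsig4, a complement receptor of Kupffer cells, had 8.35, 8.36, 8.42 and 8.12 and Ctss, a lysosomal protease, 8.57, 8.39, 8.67 and 8.00 in CC001/Unc vehicle mice, against means of 7.08 and 7.42 in the other lines. CC001/Unc ranked first of 44 in both. Clec4f differed by 0.51 and was not called (adjusted p = 0.0568). The part of macrophage content in these differences was not tested. Vsig4, Ctss, Usp18, Irf7, Stat2, Marco, H2-Aa, H2-Ea and H2-T23 were named after their values were seen.

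The vehicle level and the response share the vehicle mice, so they are given side by side only. A response subtracts the vehicle level, so choosing called genes favours low vehicle levels among rises and high ones among falls. The counts below are therefore no separate result. Of the 8 genes called higher with TAK-875, 7 had a vehicle level below the mean of the other lines and 4 of these were called, as for Ephx2 (-1.08), while 6.44% of all genes were called lower. Of the 10 genes called lower, 8 had a vehicle level above it and 4 were called, as for Ccn2 (1.43) and Pkhd1 (1.30), while 54.6% of all genes were above it and 8.60% were called higher. Abca3 was the opposite case, with a vehicle level that differed by -1.38.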

How the data were processed

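The table holds log2 expression by probe set, deposited by the authors. They used RMA and Affymetrix Power Tools, according to the processing notes of the submitters, with versions not given in the sources used here. RMA corrects background, normalizes arrays and summarises probes. Scanner intensities were not used here, so no gene was removed as undetected, and the number of arrays limits precision. Series title and labels spell the compound differently, and the labels' TAK-875 is used.

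Probe sets with 1 gene in the platform table (13083) gave 9093 genes. Each gene was represented by the probe set with the highest mean. Probe sets naming several genes (261) or none (3053) were left out. Symbols were updated through RefSeq.

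Pair differences of all 171 pairs were fitted with limma 3.58.1 in R 4.3.3, with 1 mean per line and a trended eBayes variance (127 residual degrees of freedom). The CC001/Unc mean was tested against 0 and against the unweighted mean of the other lines. Vehicle arrays were fitted likewise. Tests were two-sided with Benjamini-Hochberg adjustment over all genes at 0.05. The pairs come from the labels, and deviations of same-numbered mice correlated by 0.03, -0.06, -0.10 and 0.14, and those of differently numbered mice by up to 0.24. The code was tested on simulated data. Python 3.11.15, pandas 2.3.3, numpy 2.4.6 and matplotlib 3.10.9 were used for summaries.

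Genes were named by rule: the 15 largest rises and 10 largest falls called with 1 sign in all pairs, the 10 largest vehicle differences in each direction, the 10 largest rises and 5 largest falls of the other lines, up to 3 called members per list or the 2 moving most elsewhere, and bile acid genes. The members and the 39 gene lists were chosen with earlier results of these data known. Alternatives covered pairing, probe sets, scaling, dim genes, fits and single pairs.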

Additional observations from a re-analysis of the deposited data

Results flagged for a closer look

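In groups of 4, a value was singled out when its gap to the nearest other value took up more of the group's range than Dixon's critical value allows. This was met by 10 of 111 named groups, and chance alone flags about 1 in 20 groups.

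Pair 2 differed from the other 3 pairs in 6 responses. Pctp responded by 0.71 there, against 1.11 to 1.17 in the others, and Ephx2 by 0.86, against 0.43 to 0.50. Mvd was -3.73 in pair 2 and 1.12 to 1.35 elsewhere. Gadd45a, a DNA damage and stress gene, was 3.23 in pair 2 and -0.26 to 0.11 elsewhere. Saa2 was 1.12, against 3.05 to 3.27, and Stab2, an endothelial scavenger receptor, 0.0817, against -0.16 to -0.13.

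Pair 4 stood apart in 2 responses. Dio1, the deiodinase that activates thyroid hormone, was -2.29 there and -0.54 to -0.38 elsewhere. Psat1, of serine synthesis, was 2.63 there and -0.41 to -0.07 elsewhere.

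Among vehicle mice, mouse 3 stood apart in 2 genes. Adamdec1 was 7.01 there and 6.18 to 6.30 in the others. Scara5, a ferritin receptor, was 2.66 there and 2.97 to 3.01 in the others. All these readings are low, as vehicle means of the other lines ran from 2.80 to 7.11.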

How the results depend on the processing

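The 18 response calls became 2 with no replicate block, 29 with the mean of all probe sets, 28 with arrays centred on their medians, 36 after a further quantile normalization, 54 without poorly correlated pairs of other lines and 0 with only the CC001/Unc arrays (989 at an unadjusted p under 0.05). Leaving out 1 pair at a time gave 0 to 41 calls. The difference from the other lines had 0 calls, against 1 with centred arrays, 1 after quantile normalization and 0 to 2 with a pair left out. The 1368 vehicle calls became 0 with the spread between lines as the error, 876 in the TAK-875 arrays (an alternative chosen after seeing the data) and 782 to 1016 with a mouse left out. The cause of these changes was not tested, beyond fewer samples where mice were left out. The other settings, every probe set, the dimmest 25% left out and robust eBayes, kept the counts within 1.5 times.

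All 18 called genes lost their call without pair 2, without pair 4 and with only the CC001/Unc arrays. Of the 18, 16 were also called with the mean of all probe sets, 13 with centred arrays, 17 after quantile normalization, 16 without pair 1 and 12 without pair 3. Named genes whose sign turned were near 0 or rested on 1 pair. With centred arrays the response became 0.0224 for Cyp1a1, 0.0726 for Fabp1, 0.0096 for Stab2, 0.0898 for S100a9, 0.0884 for Cd3e, 0.0177 for Hbb-b2 and 0.0809 for Slc10a1. Quantile normalization gave 0.11 for S100a9 and 0.10 for Cd3e, and the mean of all probe sets gave 0.0898 for Fabp1.
With 1 pair left out at a time, responses ranged from -0.21 to 0.33 for Apob, -0.16 to 0.78 for Ccnd1, -0.12 to 0.18 for Cd3e, -0.0215 to 0.97 for Cd79a, -0.38 to 0.0736 for Colec11, -0.27 to 0.13 for Cyp1a1, -0.46 to 0.012 for Fabp4, -0.0319 to 1.13 for Gadd45a and -0.19 to 0.12 for Hbb-b2. They ranged from -0.42 to 1.27 for Mvd, -0.0363 to 0.39 for Nqo1, -0.20 to 0.82 for Psat1, -0.30 to 0.22 for S100a9, -1.01 to 0.086 for Saa3, -0.13 to 0.0481 for Slc10a1, -0.0304 to 0.28 for Tnni2 and -0.46 to 0.0475 for Tspan8.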
